A study of Mus musculus with 12 samples.

Results

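Gne KO and WT cells of the mouse line Sol8 were compared after the switch to differentiation medium. Sol8 is a myogenic line isolated from soleus muscle, and Gne encodes the bifunctional enzyme that starts the synthesis of sialic acid. The WT cells were unedited, and the Gne KO cells were 1 clone made with Cas9 and guide RNAs against exon 3, in which a short deletion shifts the reading frame. Both were grown in horse serum for differentiation, while the proliferative cells of the same series were grown in fetal calf serum, and the length of the differentiation is not given in the labels. The comparison used 6 of the 12 libraries of the series, 3 of WT and 3 of Gne KO, and every gene with at least 10 counts over the 12 libraries, which gave 20415 of the 54838 genes listed. In the labels the 3 libraries of each group are biological replicates, while the study speaks both of independent cultures and of triplicates. The p-values therefore measure the spread between these libraries, pooled over the 4 groups of the series. Since all Gne KO libraries come from 1 clone, an effect of the loss of Gne and a trait of the clone cannot be told apart.

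When myoblasts leave the cell cycle they switch on myogenin and the MEF2 factors under the control of MyoD, fuse to myotubes through the membrane proteins myomaker and myomixer, and build sarcomeres. A sarcomere holds thick filaments of myosin, thin filaments of actin with troponin and tropomyosin, Z discs that anchor the thin filaments, and titin, which spans from the Z disc to the M line. Contraction is triggered through acetylcholine receptors, sodium and calcium channels and the calcium stores of the sarcoplasmic reticulum, and the membrane is held by the dystrophin complex. Sialic acid, the end product of the pathway that Gne opens, caps the sugar chains of many surface proteins, and polysialic acid is carried mainly by the adhesion molecule Ncam1.

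The 6 libraries held 22612038 to 29029900 counts in genes, and a normalized count below is a count scaled to a common library size. The median standard error of the log2 fold change was 0.107 among genes whose mean was at least 100. Genotype separated the 6 libraries along principal component 1, to which 97.2% of the variance belonged, over the 500 most variable genes. Library order was read in 36 sarcomere genes called lower, as defined below, with a Gne KO mean of at least 10. Among Gne KO libraries replicate 2 was the lowest in 30 of these 36 genes and replicate 1 the highest in 28. Among WT libraries replicate 3 was the lowest in 34, so these genes tended to be low in the same library of a group. In limma's voom test with Benjamini-Hochberg adjustment, 2273 genes (11.1% of those tested) were higher and 2555 (12.5%) lower in Gne KO at an adjusted p under 0.05, which is what "passed" means below. Without WT replicate 1 only 1442 genes passed as higher, and 1515 without Gne KO replicate 2. Of the genes that passed, 47.1% were higher, and the share was 65.5% once fold changes were freed of their trend with GC content and length, which shifted the median of all genes by 0.103 on the log2 scale. A gene was "called" where, beside this, its mean reached 5 and the size of its log2 fold change was over 0.9 plus 7.5 times the inverse square root of the mean. It was met by 106 genes (0.519%) as higher and by 506 (2.48%) as lower. In 611 of these 612 the libraries of the groups did not overlap, as in 50.8% of all genes tested.

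The falls were far larger than the rises. The median log2 fold change was -3.86 among genes called lower and 1.76 among genes called higher, against -0.01 over all genes tested. Of the genes called lower 240 fell by more than 4 on the log2 scale, and 4 of those called higher rose by more than 4. Genes called lower made 2.65% of all normalized counts in WT and 0.616% in Gne KO, and genes called higher went from 0.437% to 1.16%. The libraries are bulk RNA of a culture, so fewer myotubes and less muscle RNA in each cell cannot be told apart in any of the values below.

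The labels give the cell type of all 6 libraries as myotube. Of 14 marker genes of myoblasts and myotubes 13 were tested, since Pax7, the factor of satellite cells, had too few counts, and 12 of the 13 were lower in Gne KO. Their summed normalized count was 88832 to 103861 in WT and 29479 to 32034 in Gne KO. Against these markers the label myotube holds less well for the Gne KO libraries, and they are called differentiated here for their medium. By imaging, the study found its Gne KO cultures in differentiation medium to be mainly unfused single cells. Whether the imaged cultures were those sequenced is not stated.

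Thick filament and M line genes were nearly all lower. Of 24 tested, 23 passed as lower and 0 as higher, and 22 were called, with a median log2 fold change of -4.85. Ttn, the gene of titin, had normalized counts of 57030.4, 54725 and 53536 in WT and 1227, 689 and 1066 in Gne KO. The highest Gne KO library thus stayed far under the lowest WT library, and the log2 fold change was -5.82 ± 0.30 (SE; adjusted p = 5.37e-09, limma voom). Myh8, which encodes the perinatal myosin heavy chain, had 654, 653 and 647 in WT and 3.48, 1.08 and 2.79 in Gne KO, with a log2 fold change of -7.86 ± 1.48 and an adjusted p of 0.00104 by limma. Myh3, the embryonic heavy chain, had 10267, 10646 and 8829 in WT and 123, 54.04 and 113 in Gne KO. The myosin heavy chain genes lie in a cluster and resemble each other, so reads may be split among them, and Myh4, a heavy chain of fast fibres with 400.05, 482 and 347 in WT and 0.869, 0 and 11.1 in Gne KO, rests on few reads in Gne KO. The fast light chains Myl1 and Mylpf fell by similar amounts, with log2 fold changes of -5.57 ± 0.47 and -5.09 ± 0.40. Mybpc1, a myosin binding protein of slow fibres, was at 95.9, 129 and 80.2 in WT, and the 3 Gne KO libraries together held 1 read of it. Myom3, a myomesin of the M line, had 276, 316 and 248 in WT and 0.869, 3.24 and 1.86 in Gne KO. Obsl1, a cytoskeletal relative of obscurin that is not confined to muscle, fell least of the list, with a log2 fold change of -0.86 ± 0.16 (adjusted p = 0.00121, limma). The exception was Mybpc2, a myosin binding protein of fast fibres, with 26.9, 33.6 and 31.1 in WT and 31.3, 46.5 and 31.6 in Gne KO and an adjusted p of 0.617 by limma.

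Promoters of 300 bases from RefSeq on GRCm38.p6, from 250 bases before the start of a gene to 50 bases after it, could be matched to 10987 of the genes tested, among them 317 of the 506 genes called lower, and were searched on both strands. The motifs were the E-box CANNTG that MyoD and myogenin bind, its form CAGCTG, which is also counted as CANNTG, the MEF2 site, the CArG box of serum response factor and the TATA box TATAAA, which a MEF2 site can overlap. The 4 sequences that follow are from muscle genes that fell by more than 5 on the log2 scale and hold a MEF2 site, which most genes called lower do not. Capitals mark the motif with the largest ratio between its share in genes called lower and its share in all promoters. By the difference of these shares CANNTG and CAGCTG stood further apart. The sequences run 5′ to 3′ along the gene. In Ttn, Myh8 and Myom3 the capitals mark the MEF2 site, and in Srpk3, a muscle kinase of splicing factors described below, they mark the MEF2 site and 2 copies of CAGCTG.
Ttn promoter (chr2:76982498-76982797, minus strand): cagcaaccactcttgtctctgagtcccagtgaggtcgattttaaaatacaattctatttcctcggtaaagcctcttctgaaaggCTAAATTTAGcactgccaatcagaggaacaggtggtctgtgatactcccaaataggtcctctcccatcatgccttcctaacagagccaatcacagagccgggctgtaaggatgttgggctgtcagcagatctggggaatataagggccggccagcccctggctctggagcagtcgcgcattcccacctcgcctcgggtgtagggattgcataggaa
Myh8 promoter (chr11:67276874-67277173, plus strand): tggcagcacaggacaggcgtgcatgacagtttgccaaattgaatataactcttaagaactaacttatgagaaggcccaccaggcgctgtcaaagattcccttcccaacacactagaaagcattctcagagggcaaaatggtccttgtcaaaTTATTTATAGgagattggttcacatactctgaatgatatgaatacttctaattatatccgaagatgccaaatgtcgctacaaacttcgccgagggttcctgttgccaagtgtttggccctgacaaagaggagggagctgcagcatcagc
Myom3 promoter (chr4:135759465-135759764, plus strand): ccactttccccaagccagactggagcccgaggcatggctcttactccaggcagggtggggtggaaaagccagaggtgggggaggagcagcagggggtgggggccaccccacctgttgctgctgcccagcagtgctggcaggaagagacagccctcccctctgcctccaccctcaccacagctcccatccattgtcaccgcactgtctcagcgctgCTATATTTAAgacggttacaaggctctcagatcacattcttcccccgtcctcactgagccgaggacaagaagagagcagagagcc
Srpk3 promoter (chrX:73774155-73774454, plus strand): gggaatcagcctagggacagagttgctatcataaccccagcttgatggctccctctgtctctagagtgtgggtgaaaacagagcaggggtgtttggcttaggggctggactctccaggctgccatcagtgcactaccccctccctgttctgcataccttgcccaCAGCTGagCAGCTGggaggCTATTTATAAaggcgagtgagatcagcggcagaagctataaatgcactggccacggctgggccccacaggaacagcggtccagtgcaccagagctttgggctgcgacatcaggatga

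The MEF2 site of Ttn began at base -166 from the start of the gene, that of Myh8 at -99, that of Myom3 at -35 and that of Srpk3 at -67. A MEF2 site was present in 10.1% of the promoters of genes called lower (32 of 317) and in 1.93% of all promoters matched (212 of 10987). In the called members of the 3 sarcomere lists the share was 26.3% (10 of 38), and in genes called lower outside these lists it was 7.89% (22 of 279). Among genes called higher 1 of 71 promoters held the site, or 1.41%. The form CAGCTG was found in 28.7% of the promoters of genes called lower and in 15.6% of all promoters, while genes called higher had 15.5%. The wider E-box CANNTG was in 77.0% and 63.7%, and TATAAA in 16.7% and 7.77%. With promoters matched within 100 bases of the gene's 5′ end the share with a MEF2 site was 11.5% in genes called lower and 1.96% in all. A match describes letters in this window and does not show that a factor binds there.

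**Figure D1:**
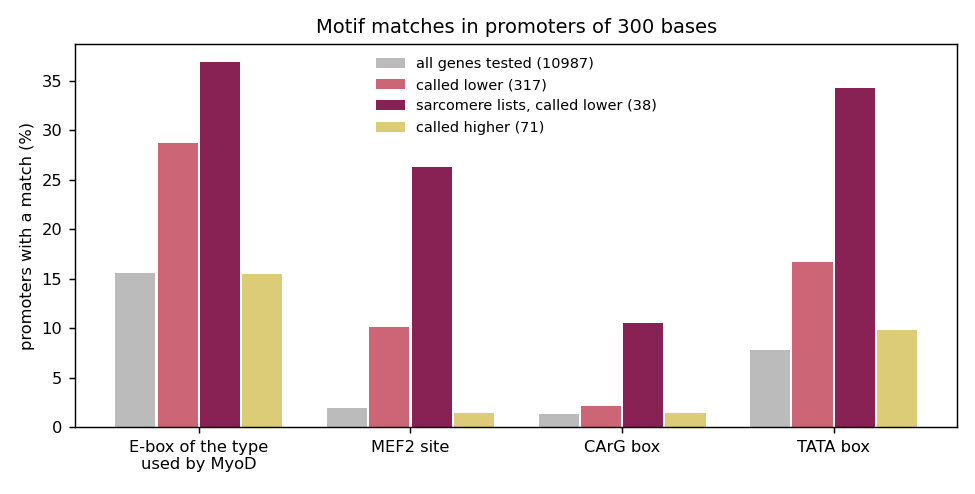
Share of promoters of 300 bases with at least 1 match to a motif, in percent, for all genes tested (10987 promoters), genes called lower in Gne KO (317), called genes of the sarcomere lists (38) and genes called higher (71). Genes called lower held a MEF2 site in 10.1% of promoters and all genes in 1.93%.

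Thin filament genes were mostly lower too. Of 24 tested, 20 passed as lower and 1 as higher (0 without WT replicate 1 or 3 or Gne KO replicate 1), and 17 were called lower, with a median of -4.50. Acta1, the actin of adult skeletal muscle, had 16475, 17032 and 13383 in WT and 583, 310.2 and 438 in Gne KO, and its log2 fold change was -5.16 ± 0.40 (adjusted p = 2.09e-07, limma). Its promoter holds a CArG box that begins at base -73 and a CAGCTG at -221, both in capitals.
Acta1 promoter (chr8:123894726-123895025, minus strand): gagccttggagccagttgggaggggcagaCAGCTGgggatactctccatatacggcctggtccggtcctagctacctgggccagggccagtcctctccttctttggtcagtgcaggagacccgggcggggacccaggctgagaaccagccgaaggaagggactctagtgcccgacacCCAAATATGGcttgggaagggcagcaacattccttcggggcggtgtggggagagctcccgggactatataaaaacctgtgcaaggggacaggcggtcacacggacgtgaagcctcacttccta
CArG boxes were present in 4 of the 38 promoters of called sarcomere genes (10.5%) and in 1.31% of all promoters. Actc1, the actin of heart and of embryonic skeletal muscle, fell from 5979.6, 6187 and 4781 to 78.3, 33.5 and 55.7, although the near-identical coding parts of the actins can share reads. Lmod2, which lengthens thin filaments, had 208, 179 and 169.5 in WT and 1.74, 2.16 and 2.79 in Gne KO, and Neb, the gene of nebulin, had a log2 fold change of -5.89 ± 0.54. The troponin gene Tnnt3 fell by a like amount (-4.93 ± 0.44).

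Tropomyosins, which are also made outside striated muscle, fell less or did not pass. Tpm1 had 34036, 33592 and 32175 in WT and 19167, 17477 and 20079 in Gne KO, a log2 fold change of -0.82 ± 0.11. Tpm2 had 9196, 9349.5 and 8537 in WT and 4574, 4354 and 4515 in Gne KO and was called at a log2 fold change of -1.01 ± 0.20 (adjusted p = 0.00142, limma). Tpm3 had 6241, 6169 and 6737 in WT and 5811, 5511 and 5811 in Gne KO, a log2 fold change of -0.16 ± 0.12 with an adjusted p of 0.381 by limma. Tmod4, which caps the slow end of the thin filament in skeletal muscle, was the single member that passed as higher, with 24.9, 27.1 and 25.1 in WT and 46.1, 43.2 and 40.9 in Gne KO. That pass (adjusted p = 0.0176, limma) is lost without some single differentiated libraries.

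Z disc genes passed mainly as lower. Of 28 genes tested 22 passed as lower and 0 as higher, 14 were called lower, and the median was -1.63. Pdlim3, a LIM protein that binds alpha-actinin, had 389, 373 and 328 in WT and 6.96, 2.16 and 4.64 in Gne KO. Actn2, the alpha-actinin of muscle, had 111, 131 and 104 in WT and 0.869, 2.16 and 2.79 in Gne KO, which in Gne KO is 6 reads in all 3 libraries. Des, the gene of the intermediate filament desmin, which myoblasts already make, had 22258, 23132 and 21644 in WT and 8672, 8055 and 7905 in Gne KO, a 2.72-fold fall (log2 fold change -1.44 ± 0.16, adjusted p = 7.28e-06, limma). Ankrd1, a stretch-responsive repeat protein, had 7974, 8228 and 6747 in WT and 4439, 2894 and 3541 in Gne KO with Gne KO replicate 2 the lowest. Flnc, the muscle filamin, had 16824, 17236 and 16366 in WT and 13160.2, 11881 and 12421 in Gne KO, a log2 fold change of -0.43 ± 0.12 whose pass is lost without single libraries, and Pdlim5 and the chaperone partner Bag3 had log2 fold changes of -0.13 ± 0.10 and 0.01 ± 0.13 and did not pass. Over the 3 lists the 53 called genes had a Gne KO level of 3.28% of WT in the median (0.285% to 49.6%).

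**Figure D2:**
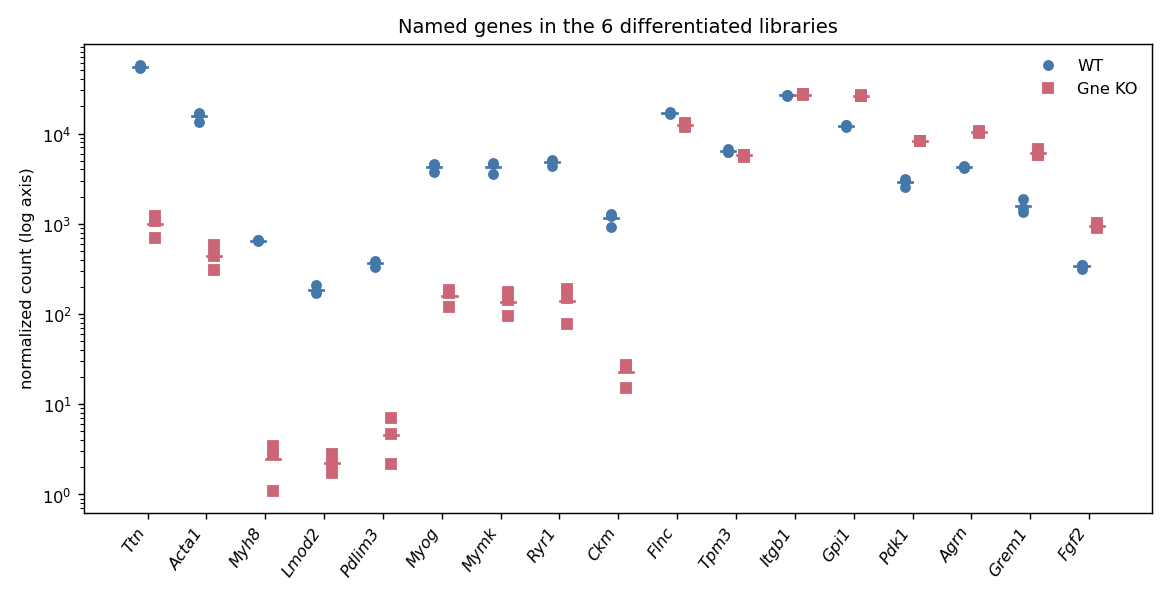
Normalized counts of 17 named genes in each of the 3 WT (circles) and 3 Gne KO libraries (squares) of differentiated cells, on a log axis, with the group means as bars. The muscle genes from Ttn to Ckm are lower in every Gne KO library, Itgb1 overlaps between the groups, and the genes from Gpi1 to Fgf2 are higher in every Gne KO library.

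The regulators of the muscle programme did not move as a block. Of 19 myogenic transcription factors tested 10 passed as lower (6 without WT replicate 3) and 1 as higher, 5 were called lower, and the median was -0.39. Myog, the gene of myogenin, had 4429, 4587 and 3705 in WT and 186, 121 and 169.9 in Gne KO, a log2 fold change of -4.73 ± 0.49 (adjusted p = 4.39e-06, limma). Mef2c had 302, 305 and 269 in WT and 9.56, 10.8 and 13.9 in Gne KO, and Tead4, a factor that acts with MyoD targets, had 560.3, 564 and 459 in WT and 31.3, 19.5 and 25.1 in Gne KO. Smyd1, a methyltransferase needed for sarcomere assembly, had a log2 fold change of -4.84 ± 0.69. Myod1 itself fell less, with 1375, 1398 and 1257 in WT and 246, 189 and 215 in Gne KO and a log2 fold change of -2.63 ± 0.30, and in proliferative cells its means were 2271 in WT and 2129 in Gne KO. The log2 fold change of Myod1 in proliferative cells was -0.00, and the difference between the states was -2.62 ± 0.38 (adjusted p = 7.29e-05, limma).

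Eya4, a transcriptional cofactor, had 3254, 2906 and 3449 in WT and 2319, 2264 and 2669 in Gne KO, and Myf5, the factor of early myoblasts, 1383, 1188 and 1485 in WT and 1069, 1019 and 986 in Gne KO. Their log2 fold changes were -0.41 ± 0.11 and -0.39 ± 0.11, and each pass is lost when 1 or another of the differentiated libraries is left out. Eya1 had 719, 673 and 775 in WT and 967, 894 and 963 in Gne KO. Mef2a, the MEF2 gene with the highest counts, had 12861, 12730.3 and 13639 in WT and 9075, 8445 and 9361 in Gne KO and fell by 1.46-fold (adjusted p = 0.00697, limma). Mef2d had a log2 fold change of -0.11 ± 0.11 and did not pass.

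Inhibitors of the myogenic factors were lower rather than higher. Of 16 tested 9 passed as lower and 2 as higher (1 without any of several single libraries), 5 were called lower, and the median was -0.43. Id3, which holds back MyoD by pairing with its partner E proteins, had 1293, 1476 and 1660.2 in WT and 225, 97.3 and 114 in Gne KO, and Id1 had 325, 351 and 395 in WT and 108, 97.3 and 108 in Gne KO. The log2 fold changes were -3.40 ± 0.31 and -1.76 ± 0.22. Gne KO replicate 1 stood above the other 2 in Id3, and without it the log2 fold change was -3.79. Hes1, a target of Notch signalling, had 498, 667 and 395 in WT and 72.2, 60.5 and 47.4 in Gne KO, and Heyl and Hey1, of the same family, had log2 fold changes of -2.06 ± 0.47 and -3.02 ± 0.66. Twist1, which blocks MyoD in early mesoderm, was higher with 803, 781 and 829.6 in WT and 1203, 1267 and 1223 in Gne KO (log2 fold change 0.61 ± 0.09, adjusted p = 7.15e-05, limma). Bhlhe41 fell by 1.32-fold, and Bhlhe40 had 4159.7, 4618 and 3788 in WT and 3418, 2807 and 2879 in Gne KO. The repressors Zeb1 and Zeb2 had log2 fold changes of 0.06 ± 0.09 and -0.10 ± 0.09 and did not pass.

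RNA of both fusion proteins fell. Mymk (myomaker) had 4559, 4745 and 3569 in WT and 174, 94.04 and 142 in Gne KO, a log2 fold change of -4.98 ± 0.46 (adjusted p = 1.19e-06, limma), and Mymx (myomixer) had 684, 701 and 556 in WT and 46.95, 37.8 and 23.2 in Gne KO, a log2 fold change of -4.20 ± 0.48. Over the fusion list of 24 genes, however, 11 passed as lower, 5 passed as higher, 6 were called lower, and the median was -0.12. Several members that other cells also use were higher or level. Cdon, a receptor that promotes differentiation, rose with 8681, 8944 and 7848 in WT and 11492, 10726 and 11061 in Gne KO, and the laminin receptor subunit Itga3 had 1655, 1657 and 1680.2 in WT and 2558, 2309.9 and 2579.8 in Gne KO (log2 fold changes 0.39 ± 0.07 and 0.58 ± 0.10). Itgb1, the common integrin beta subunit, had 26745, 26532 and 26232 in WT and 27069.8, 26515 and 27384 in Gne KO, and Cd81, a tetraspanin, had a log2 fold change of 0.12 ± 0.10. Cdh15, the cadherin of myoblasts, fell from 3932, 3934 and 3344 to 1567, 1461 and 1452. Dysf, the membrane repair protein dysferlin, had 336, 331 and 276 in WT and 4.35, 7.57 and 8.36 in Gne KO, while its relative Myof had 20636, 20974 and 22200 in WT and 18684, 17818 and 18394 in Gne KO, with a log2 fold change of -0.22 ± 0.06.

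At the neuromuscular synapse the receptor side fell and agrin rose. Of 19 genes tested 14 passed as lower and 1 as higher. Chrna1, the alpha subunit of the acetylcholine receptor, had 5776, 5758 and 4965 in WT and 630.4, 542 and 566 in Gne KO, a log2 fold change of -3.24 ± 0.26 (adjusted p = 3.51e-07, limma). Agrn, the gene of agrin, which clusters these receptors through Lrp4 and Musk, had 4167, 4318 and 4212 in WT and 10622, 10376 and 10187 in Gne KO, a log2 fold change of 1.30 ± 0.07 (adjusted p = 1.08e-08, limma). The 3 Gne KO libraries of Agrn lay close to each other and all above WT. Lrp4 had 4357, 4564 and 3445 in WT and 2301, 1886 and 2429 in Gne KO, a log2 fold change of -0.90 ± 0.18, and Musk had 724, 752 and 846 in WT and 449.5, 467 and 473 in Gne KO. Rapsn, the scaffold under the receptor, had 2821, 2709 and 2568 in WT and 2796, 2567 and 2759 in Gne KO and a log2 fold change of 0.00 ± 0.13. The excitation channels Kcnj2 and Scn4a, an inward rectifier and the sodium channel of muscle, had log2 fold changes of -5.22 ± 0.42 and -5.18 ± 0.63.

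Calcium handling genes passed mainly as lower. Of 26 genes tested 20 passed as lower and 0 as higher, 13 were called, and the median was -1.25. Ryr1, the release channel of the sarcoplasmic reticulum, had 4989, 5050.1 and 4377 in WT and 189, 76.7 and 150.4 in Gne KO, with Gne KO replicate 2 the lowest and a log2 fold change of -5.17 ± 0.44. Cacna1s, its voltage sensor, had 706, 639 and 513 in WT and 21.7, 6.49 and 9.29 in Gne KO, and the calcium store protein Casq1 had a log2 fold change of -4.21 ± 0.34. The pump Atp2a1, the isoform of fast fibres, fell by 10.2-fold from 5637, 5898 and 4853 to 567, 498 and 530.3. The pump Atp2a2, which other cells also use, fell by 1.41-fold, from 9595, 9641 and 8556 to 6678, 6321 and 6700.1. Bin1, which shapes T tubules, and Jph2, which ties them to the store, had log2 fold changes of -0.61 ± 0.11 and -0.49 ± 0.11. Cav3, the caveolin of muscle, had 129.5, 120.4 and 85.3 in WT and 0.869, 0 and 2.79 in Gne KO, and Cacna2d1, a channel subunit, had a log2 fold change of 0.24 ± 0.09 and did not pass.

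In the dystrophin complex and membrane repair list 14 of 25 genes passed as lower (9 without WT replicate 2 or Gne KO replicate 1) and 3 as higher, with 7 called lower and a median of -0.32. Sntb1, a syntrophin of the complex, had 766, 711 and 670.1 in WT and 1.74, 6.49 and 1.86 in Gne KO, a log2 fold change of -7.81 ± 1.20 (adjusted p = 0.000172, limma). Dmd, the gene of dystrophin, had 39.3, 42.9 and 33.1 in WT and 0, 1.08 and 0.929 in Gne KO. Dag1, whose product dystroglycan is a heavily sialylated laminin receptor in many tissues, had 24121, 23882 and 21418 in WT and 17762, 16394 and 17745 in Gne KO, a log2 fold change of -0.42 ± 0.14 with an adjusted p of 0.0449 by limma that is lost without single libraries. Sgcd, a sarcoglycan also found in smooth muscle, rose with 271, 322 and 304 in WT and 435, 444 and 429 in Gne KO. The annexins Anxa1 and Anxa2, which seal membranes in many cells, had log2 fold changes of 0.14 ± 0.12 and -0.25 ± 0.09 and did not pass.

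Genes of muscle energy metabolism were mostly lower. Of 25 genes of muscle energy metabolism 16 passed as lower, 3 as higher and 8 were called lower. The median was -1.47 (-1.78 to -1.02 over the alternatives). Their summed normalized counts, in which abundant genes weigh most, overlapped, with 28353 to 31043 in WT and 27988 to 29010 in Gne KO. Mb, the gene of myoglobin, had 186, 165 and 142 in WT and 0, 1.08 and 1.86 in Gne KO. Ckm, the muscle creatine kinase, had 1282, 1220.3 and 931 in WT and 26.95, 15.1 and 26.00 in Gne KO, a log2 fold change of -5.64 ± 0.66 (adjusted p = 1.30e-05, limma). Ampd3, an AMP deaminase of other tissues, rose from 4435, 4445 and 4122 to 7963, 7178 and 8119. The muscle forms of phosphofructokinase and enolase, Pfkm and Eno3, and the adenine nucleotide carrier Slc25a4 had log2 fold changes of -0.30 ± 0.09, -0.48 ± 0.13 and -0.19 ± 0.07, and their passes are lost without single libraries.

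Glycolysis and hypoxia genes were mostly higher. Of 25 tested 21 passed as higher and 0 as lower, against 11.1% higher over all genes, and 6 were called, with a median of 0.78 (0.75 to 0.89 over the alternatives tried). Gpi1, the glucose phosphate isomerase, had 12389, 12323 and 11771 in WT and 25909, 26529 and 26108 in Gne KO, and Pgam1, the phosphoglycerate mutase, had 9910.1, 9852 and 9288 in WT and 20022, 19331 and 20243 in Gne KO. Ldha, the lactate dehydrogenase subunit of glycolytic cells, had 12203, 12514 and 11283 in WT and 23703, 22997 and 23833 in Gne KO. The log2 fold changes were 1.11 ± 0.11, 1.04 ± 0.10 and 0.97 ± 0.11, each with the lowest Gne KO library far above the highest WT library. Pfkl, the liver form of phosphofructokinase, rose by 2.39-fold, from 3264, 3326 and 2872 to 7596, 7493 and 7521. Pdk1, which keeps pyruvate out of the mitochondria, had 3015, 3098 and 2549 in WT and 8363, 8286 and 8352 in Gne KO, a log2 fold change of 1.53 ± 0.12 (adjusted p = 2.85e-07, limma). Bnip3, a mitophagy receptor, had 2065, 1938 and 1764 in WT and 5266, 5147 and 5576 in Gne KO, and the glucose transporter Slc2a1 rose by 2.02-fold. Car9, a carbonic anhydrase and a usual marker of hypoxia, had the largest rise of the list but on few reads, with 9.59, 13.1 and 5.02 in WT and 43.5, 46.5 and 35.3 in Gne KO.

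Pkm, Aldoa and Eno1, which encode pyruvate kinase, aldolase and the ubiquitous enolase, had log2 fold changes of 0.54 ± 0.11, 0.63 ± 0.11 and 0.66 ± 0.11. Gapdh did not pass, with 16408, 16443 and 17056 in WT and 19934, 19469 and 19715 in Gne KO and an adjusted p of 0.297 by limma. Several of these enzymes have processed pseudogenes or near copies that can take part of their reads. The hypoxia targets Ndrg1, Egln3 and Adm did not pass, with log2 fold changes of -0.25 ± 0.15, -0.23 ± 0.10 and 0.60 ± 0.28. Ddit4, a stress-induced inhibitor of mTOR, had 843, 958 and 752 in WT and 1079, 1275 and 1126 in Gne KO. In proliferative cells the median of the list was 0.76. The sequence ACGTG, the core that hypoxia-inducible factors bind, was in 11 of the 22 promoters matched and in 25.1% of all promoters. It is shown for Pgam1, where it begins at base -114 and is in capitals.
Pgam1 promoter (chr19:41911621-41911920, plus strand): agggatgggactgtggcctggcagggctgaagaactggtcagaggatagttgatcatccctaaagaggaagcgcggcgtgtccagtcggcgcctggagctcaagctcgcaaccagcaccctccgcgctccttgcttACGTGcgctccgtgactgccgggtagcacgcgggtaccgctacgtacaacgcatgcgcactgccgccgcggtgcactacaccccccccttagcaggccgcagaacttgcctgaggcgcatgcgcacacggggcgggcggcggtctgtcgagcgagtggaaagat

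Ubiquitin ligases and splicing regulators of muscle passed mainly as lower. Of 18 ligases and their adaptors 10 passed as lower and 1 as higher, with a median of -1.56 (-1.55 with genes at 0 counts set to their bound). That median ranged from -1.70 to -0.85 over the alternatives. Asb2, a substrate adaptor of muscle, had 142, 165 and 139 in WT and 0.869, 3.24 and 6.50 in Gne KO, and Trim63 (MuRF1) had 330.02, 318 and 284 in WT and 39.1, 34.6 and 50.1 in Gne KO, while Fbxo32 (atrogin-1) had 5338, 5208 and 5826 in WT and 6160.1, 6533 and 6187 in Gne KO and did not pass. The ligase subunits Asb5 and Fbxo30 had log2 fold changes of -0.86 ± 0.10 and -0.08 ± 0.14, and Rnf123 had 0.47 ± 0.09. Among 16 splicing regulators 9 passed as lower and 1 as higher. Srpk3, a kinase of splicing factors in muscle, had 133, 156 and 146 in WT and 0.869, 3.24 and 2.79 in Gne KO. Qk had a log2 fold change of -0.59 ± 0.09, and Rbfox2 had a log2 fold change of -0.29 ± 0.07 whose pass is lost after removal of the GC and length trend. Mbnl3, a muscleblind protein of myoblasts, rose from 211, 220.3 and 223 to 422, 401 and 439, and Mbnl1 and Celf1 had log2 fold changes of -0.06 ± 0.10 and -0.22 ± 0.08.

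Gne itself had 277, 285 and 264 in WT and 205, 209 and 212 in Gne KO, so the transcript was not absent. The log2 fold change was -0.40 ± 0.14 with an adjusted p of 0.0467 by limma, and the pass is lost in every fit that leaves out a differentiated library (adjusted p from 0.0764 to 0.133). It is also lost without WT proliferative replicate 2 or 3, with no filter, with a replicate block and with the GC and length trend removed. In these fits the adjusted p was 0.0521 to 0.0964 by limma. In proliferative cells its means were 270.3 in WT and 303 in Gne KO. The deletion is a short stretch of 1 exon, so a count over the whole gene is no check of the knockout.

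The rest of the sialic acid list moved little. Of 32 genes tested 8 passed as lower (4 or 5 without any 1 of the 6 differentiated libraries) and 4 as higher, with 2 called lower and a median of -0.04 (-0.08 to 0.05 over the alternatives). Those that passed made 25% lower and 12.5% higher, against 12.5% and 11.1% of all genes tested. Nans, the sialic acid synthase, had 629, 608 and 613 in WT and 587, 594 and 568 in Gne KO, Cmas, which activates sialic acid, had 743, 769 and 780.4 in WT and 710.3, 783 and 724 in Gne KO, and neither passed. Renbp, an epimerase acting on N-acetylglucosamine, had a log2 fold change of 0.00 ± 0.09. Before Gne in the pathway, Gfpt1, the first enzyme of the hexosamine route, had 4043, 4041 and 4189 in WT and 3447, 3284 and 3537 in Gne KO. Cmah, which makes N-glycolylneuraminic acid, had 56.6, 63.5 and 86.3 in WT and 39.1, 41.1 and 39.00 in Gne KO, and the passes of both are lost without single libraries.

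Both called genes belong to polysialic acid. St8sia2, a polysialyltransferase, had 94.98, 89.6 and 107 in WT and 3.48, 4.32 and 2.79 in Gne KO, a log2 fold change of -4.63 ± 1.22 (adjusted p = 0.0117, limma), and Ncam1, its main carrier, had 6916, 6873 and 6294 in WT and 3049, 2867 and 3124 in Gne KO, a log2 fold change of -1.15 ± 0.09 (adjusted p = 3.31e-07, limma). All Gne KO libraries lay below all WT libraries in both genes. The 4 genes that passed as higher were the transferases St3gal2, with 2844, 2811 and 2871 in WT and 3888, 3610.2 and 3804 in Gne KO, St6galnac6, with 1241, 1239 and 1285 in WT and 2017, 2101 and 1866 in Gne KO, and St3gal1, and the lysosomal sialidase Neu1, with 664, 625 and 629.96 in WT and 843, 947 and 916 in Gne KO. The log2 fold changes were 0.41 ± 0.08, 0.67 ± 0.10, 0.34 ± 0.09 and 0.49 ± 0.11, and the pass of St3gal1 is lost without WT replicate 1 or 3 or Gne KO replicate 1 or 2.

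**Figure D3:**
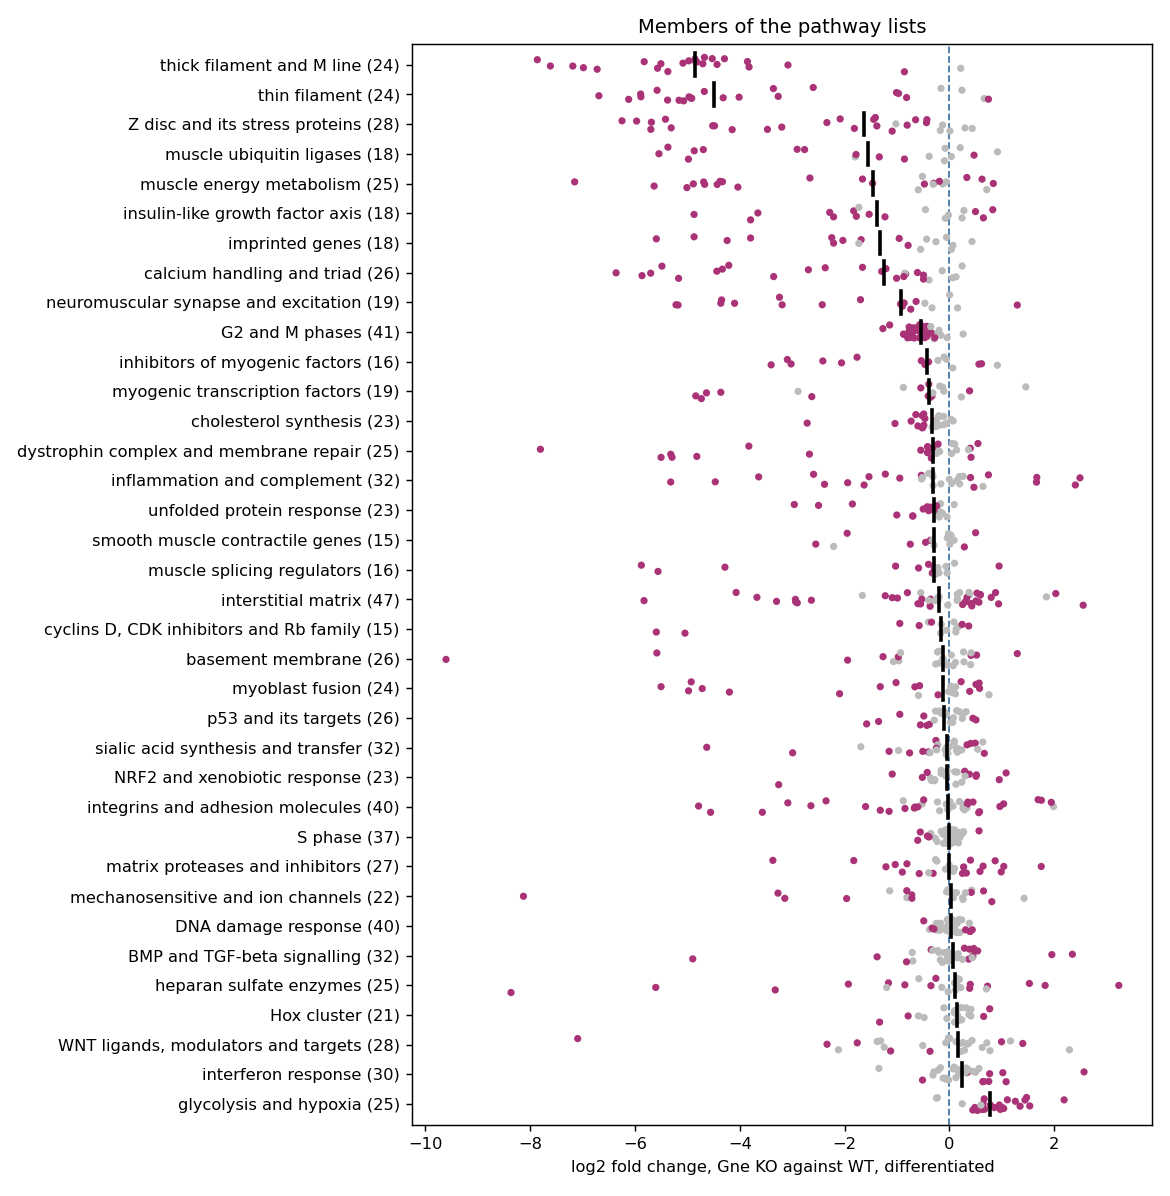
Log2 fold change between the genotypes (Gne KO over WT) in differentiated cells for each tested member of the pathway lists (points, coloured where the adjusted p is under 0.05) with the median of each list as a bar and the number of members in brackets. The lists run from thick filament genes with a median of -4.85 to glycolysis and hypoxia genes with a median of 0.78.

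Extracellular matrix genes changed in either direction. Among 26 basement membrane genes 5 (19.2%) passed as lower and 3 (11.5%) as higher (5 without WT proliferative replicate 1). Over all genes tested the shares were 12.5% and 11.1%. The median of the list was -0.12 (-0.04 with genes at 0 counts set to their bound). The abundant members did not pass, with log2 fold changes of -0.20 ± 0.08 in Col4a1, 0.04 ± 0.09 in Col4a2, -0.12 ± 0.09 in Hspg2 (perlecan) and -0.23 ± 0.10 in Sparc. Col4a5, a chain of collagen IV in a separate network, had 1232, 1207 and 1237 in WT and 0.869, 0 and 4.64 in Gne KO. Lama4, a laminin chain of vessels and muscle, had 308, 331 and 303 in WT and 5.22, 9.73 and 4.64 in Gne KO. Of 47 genes of the interstitial matrix 15 (31.9%) passed as higher and 17 (36.2%) as lower, against 11.1% and 12.5% of all genes tested. The median of this list was -0.20 and ranged from -0.21 to 0.05 over the alternatives. Col3a1 rose with 146629, 149425 and 137345 in WT and 221868, 217982 and 212052 in Gne KO, and Dcn, the proteoglycan decorin, with 3218, 3007 and 2640.2 in WT and 12156, 11328 and 12645 in Gne KO. Hmcn1, a large matrix protein of cell junctions, rose by 5.87-fold. Fbln5, needed for elastic fibres, had 223, 243 and 187 in WT and 3.48, 2.16 and 4.64 in Gne KO, and Thbs1, thrombospondin, fell by 2.34-fold from 16619, 16610.5 and 15205 to 7643, 5639 and 7618. Col1a2, Fn1 and Bgn had log2 fold changes of -0.03 ± 0.09, 0.59 ± 0.15 and 0.41 ± 0.13, and those of Fn1 and Bgn are not past the threshold without single libraries.

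Matrix proteases moved in both directions. Mmp2, a gelatinase, had 3670.5, 3668 and 3553 in WT and 358, 311 and 384 in Gne KO, a log2 fold change of -3.37 ± 0.11 (adjusted p = 2.81e-11, limma). Mmp3, stromelysin, had 2710.2, 2735 and 2855 in WT and 9742, 8879.5 and 9349 in Gne KO, a log2 fold change of 1.75 ± 0.08 (adjusted p = 2.58e-09, limma). The other gelatinase, Mmp9, had a log2 fold change of 0.08 ± 0.11 and did not pass, nor did Serpinf1 at 0.10 ± 0.13. Mmp14 and Timp2, which activate Mmp2 together, had log2 fold changes of 0.25 ± 0.08 and -0.31 ± 0.09. Over the 27 proteases and inhibitors 10 passed as higher (6 without Gne KO replicate 1) and 8 as lower.

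Of 40 integrins and adhesion molecules 10 passed as higher and 14 as lower. Itgb3, the beta subunit of the vitronectin receptor, had 166, 159.7 and 158 in WT and 561, 571 and 752 in Gne KO, and Itga10, a collagen receptor subunit, 73.9, 59.8 and 53.2 in WT and 225, 199.97 and 203 in Gne KO. Itgav, the partner of Itgb3, rose by 1.28-fold. Itgb6, an epithelial partner of the same chain, had 67.2, 69.1 and 50.2 in WT and 2.61, 2.16 and 0.929 in Gne KO. Itga7, the laminin receptor subunit of muscle, had 18054, 19057 and 15560.4 in WT and 15545, 14657 and 14631 in Gne KO, a log2 fold change of -0.23 ± 0.09 with an adjusted p of 0.0843 by limma. Syndecan 2, Sdc2, had a log2 fold change of -0.06 ± 0.07. Among 25 enzymes and carriers of heparan sulfate 6 passed as higher and 8 as lower. The polymerase genes Ext1 and Ext2 had log2 fold changes of -0.35 ± 0.07 and 0.22 ± 0.08, the sulfotransferase Hs2st1 -0.02 ± 0.07 and the carrier Gpc1 -0.14 ± 0.11. A pair of sulfotransferases moved in opposite directions, with Hs6st2 at 558, 526 and 609 in WT and 1.74, 1.08 and 0.929 in Gne KO and Hs3st1 at 6.72, 3.73 and 5.02 in WT and 47.8, 60.5 and 47.4 in Gne KO, and Sulf1, which removes sulfate outside the cell, fell from 1101, 1086 and 1097 to 311, 278 and 273.

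Of the signalling lists the insulin-like growth factor axis was the one with most genes called lower. Of 18 genes tested 9 passed as lower and 3 as higher (5 without Gne KO proliferative replicate 1), with 7 called lower and a median of -1.38. Igfbp5, the binding protein of muscle cells, had 46410.4, 47691 and 40068 in WT and 17025, 13553 and 15886 in Gne KO, and Igfbp2 had 2799, 2971 and 2291 in WT and 229.5, 171 and 236 in Gne KO. The imprinted RNA H19 had 47181, 45719 and 41940.4 in WT and 1858, 1178 and 1626 in Gne KO, a log2 fold change of -4.87 ± 0.31 (adjusted p = 3.91e-08, limma), and its neighbour Igf2 had 20.1, 20.5 and 10.03 in WT and 0.869, 0 and 1.86 in Gne KO on few reads. The receptor Igf1r and its adaptor Irs1 did not pass, with log2 fold changes of -0.08 ± 0.06 and 0.24 ± 0.10. Igfbp4 had 182, 183 and 117 in WT and 292, 241 and 311 in Gne KO, and its pass is lost without single libraries. Cdkn1c, an imprinted inhibitor of the cell cycle, had 301, 375 and 304 in WT and 8.69, 7.57 and 3.71 in Gne KO. Of 18 imprinted genes 10 passed as lower and 0 as higher, with a median of -1.32, and Peg3 fell by 1.73-fold while Gnas and Impact had log2 fold changes of -0.05 ± 0.10 and -0.26 ± 0.13. H19 and Igf2 belong to both lists, so the counts are not independent.

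In the BMP and TGF-beta list 9 of 32 genes passed as higher and 4 as lower, against 5 and 2 without WT replicate 1 or 2 or Gne KO replicate 1 or 2, and 2 lower without Gne KO replicate 3. Fst, follistatin, an antagonist of myostatin and activin, had 287, 283 and 244 in WT and 13.04, 5.40 and 8.36 in Gne KO, a log2 fold change of -4.90 ± 0.72. Grem1, an antagonist of BMPs, had 1477, 1367 and 1896 in WT and 5749, 5778 and 6708 in Gne KO, a log2 fold change of 1.96 ± 0.20 (adjusted p = 3.35e-06, limma). The abundant members moved little, with log2 fold changes of 0.29 ± 0.06 in Bmp1, a protease of procollagens, 0.16 ± 0.10 and -0.13 ± 0.09 in the receptors Tgfbr2 and Bmpr2 and 0.15 ± 0.07 in Fstl1. Bmp4 itself rose on few reads, with 8.63, 20.5 and 4.01 in WT and 64.3, 32.4 and 52.00 in Gne KO and WT replicate 2 the highest of its group. Of the WNT list, Sfrp2, a secreted antagonist, had 317, 309.97 and 370.2 in WT and 0.869, 2.16 and 3.71 in Gne KO, and the ligand Wnt5a rose from 80.6, 80.3 and 106 to 214, 239 and 249.8. The ligands Wnt6 and Wnt10a had log2 fold changes of 0.34 ± 0.13 and 0.29 ± 0.11, and the pathway's target Axin2 and its nuclear factor Tcf7 0.13 ± 0.09 and 0.20 ± 0.11. Over the 28 WNT genes tested 5 (17.9%) passed as lower and 2 (7.14%) as higher, against 12.5% and 11.1% of all genes tested. The count higher was 6 without Gne KO proliferative replicate 3 and 5 without Gne KO proliferative replicate 1, and 3 were lower without WT replicate 2 or Gne KO replicate 2 or 3.

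Inflammatory and complement genes moved both ways. Of 32 tested 11 passed as lower (6 or 7 without WT replicate 1 or 2 or Gne KO replicate 2 or 3) and 7 as higher. Il33, an alarmin of stromal cells, had 2932, 2977 and 3738 in WT and 10396, 10138 and 9805 in Gne KO, a log2 fold change of 1.66 ± 0.15 (adjusted p = 1.46e-06, limma). All Gne KO libraries lay above all WT libraries. C1s1 and the chemokine Cxcl12 rose by 1.68-fold and 1.32-fold, and Csf1 had a log2 fold change of 0.14 ± 0.18. Cxcl1, a neutrophil chemokine, had 1391, 1500.4 and 1548 in WT and 719, 222 and 334 in Gne KO, and the immediate early factor Egr1 had 22937, 23866 and 18701 in WT and 10194, 4337 and 4639 in Gne KO. In both genes Gne KO replicate 1 lay between the other Gne KO libraries and WT, and without it the log2 fold changes went from -1.94 to -2.43 and from -1.88 to -2.28. C1qtnf3, a secreted protein related to complement, had 1282, 1277 and 1046 in WT and 33.04, 19.5 and 38.1 in Gne KO.

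Interferon genes tended upward, with 8 of 30 passing as higher, 1 as lower and a median of 0.25. Rsad2, an antiviral enzyme, rose on few reads with 6.72, 9.34 and 16.05 in WT and 58.3, 50.8 and 78.01 in Gne KO, whereas the interferon factor Irf1 had a log2 fold change of -0.17 ± 0.11 and B2m one of 0.36 ± 0.14, and neither passed. The same holds for H2-K1, a class I antigen presenting gene, with 0.32 ± 0.14, and Ddx58, the RNA sensor RIG-I, with -0.06 ± 0.08. Gbp3, a guanylate binding protein, fell by 1.43-fold. In proliferative cells the median of the list was 1.03, and 16 of its genes had a smaller log2 fold change in differentiated than in proliferative cells by the interaction test, against 2 with a larger one.

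Stress and sterol genes passed mainly as lower. In the unfolded protein response list 13 of 23 genes passed as lower and 0 as higher, with a median of -0.29. The largest falls of the list were in targets of Atf4, with Chac1, which degrades glutathione, at 662, 709 and 479 in WT and 90.4, 79.99 and 65.00 in Gne KO, Trib3, a pseudokinase, at 435, 468 and 338 in WT and 77.4, 78.9 and 62.2 in Gne KO and asparagine synthetase, Asns, at 1923, 1947 and 1738 in WT and 499.9, 518 and 535 in Gne KO. Atf4 itself fell by 1.62-fold from 10760.1, 11737 and 9637 to 6701, 6582 and 6461. The stress sensor Eif2ak3 had a log2 fold change of -0.25 ± 0.08. The chaperone Hspa5 fell by 1.41-fold, and Hsp90b1, Calr and Canx had log2 fold changes of -0.16 ± 0.07, -0.19 ± 0.15 and -0.17 ± 0.07 and did not pass. In cholesterol synthesis 12 of 23 genes passed as lower and 0 as higher, with a median of -0.33. Hmgcs1, an early enzyme, had 14859, 14073 and 15782 in WT and 8881, 8711 and 9334 in Gne KO, and Cyp51 and Mvd, of later steps, had log2 fold changes of -0.29 ± 0.09 and -1.04 ± 0.15. Srebf2 and Sqle had log2 fold changes of -0.11 ± 0.09 and -0.20 ± 0.09 and did not pass.

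Genes of G2 and mitosis were slightly lower in Gne KO, in the direction opposite to that in proliferative cells. Of 41 tested 32 passed as lower and 0 as higher, with a median of -0.54 in differentiated and 0.45 in proliferative cells. Mki67 had 14757, 14384 and 16587 in WT and 10089, 11008 and 10542 in Gne KO, Racgap1, a regulator of cytokinesis, 4892, 4881 and 4715 in WT and 3169, 3433 and 3373 in Gne KO, and Cenpv 169, 166 and 126 in WT and 62.6, 63.8 and 63.1 in Gne KO. Ccnb2, cyclin B2, was the only one called, with 1271, 1379.9 and 1359 in WT and 585, 617 and 618 in Gne KO and a log2 fold change of -1.14 ± 0.09 (adjusted p = 4.27e-07, limma). Prc1, of the mitotic midzone, had a log2 fold change of -0.28 ± 0.08. Anln fell by 1.28-fold, while Top2a and Cdc25b had log2 fold changes of -0.23 ± 0.11 and 0.26 ± 0.14. By the interaction test 29 of the 41 had a lower and 3 a higher log2 fold change in differentiated than in proliferative cells.

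S phase genes lay near WT. Of 37 tested 4 passed as lower and 1 as higher (3 without Gne KO proliferative replicate 1 or 3), with a median of -0.01, and Mcm4, Mcm6 and Mcm7 of the replicative helicase had log2 fold changes of -0.05 ± 0.07, 0.09 ± 0.07 and -0.16 ± 0.09. Rrm1 and Rrm2, the subunits of ribonucleotide reductase, fell by 1.34-fold and 1.52-fold, and Gins3, of the helicase complex, was the one that passed as higher (0.57 ± 0.11). Among the brakes and drivers of the G1 phase, Cdkn1a (p21) fell from 10054, 10359.7 and 8997 to 5103, 5035 and 5096, and Ccnd2 (cyclin D2) from 227, 222 and 165 to 5.22, 5.40 and 6.50. Ccnd1, Cdk4 and Cdk6 had log2 fold changes of 0.37 ± 0.10, -0.17 ± 0.09 and -0.34 ± 0.11.

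Near zero in Gne KO were 16 genes, which in WT had a mean of at least 100 and in every Gne KO library at most 3 reads, and 0 genes were near zero in WT. Piezo2, the mechanically gated channel of sensory neurons, had 131, 151 and 118 in WT and 0 reads in all Gne KO libraries, which makes it at least 141-fold lower against a floor of 3 counts over the group. Dbt, a subunit of the mitochondrial enzyme that breaks down branched-chain amino acids, had 109, 102 and 111 in WT and 0 reads in Gne KO, at least 113-fold lower. Hs6st2 had 4 reads in the 3 Gne KO libraries, and its level was 444-fold (exact Poisson 95% interval 173 to 1629) lower. Lpar3, a receptor of lysophosphatidic acid, had 1 read against 140.1, 151 and 145 normalized counts in WT, and the guidance molecule Sema3e had 2 reads against 151, 134 and 153. Hhipl1, of unclear function, was 144-fold (exact Poisson 95% interval 56.2 to 528) lower, Lmod2 83.7-fold (exact Poisson 95% interval 40.6 to 208), Myom3 147-fold (exact Poisson 95% interval 67.7 to 402) and Mb 173-fold (exact Poisson 95% interval 59.3 to 840.3). The other 7 were Gatm, Srpk3, Smpx, Actn2, Hebp1, Cav3 and Mybpc1. These intervals cover counting error only.

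In proliferative Gne KO cells 15 of the 16 also had a mean under 5. Of 32 neighbours with a mean of at least 50, 14 passed and 1 was called, Fam234b, which overlaps Hebp1 and went from 136 to 8.24 in the mean. Over all genes tested, with no limit on the mean, 11.1% passed as higher and 12.5% as lower. The shares called were 0.519% and 2.48%. Dbt lies on chromosome 3 from 116513070 to 116549981 between Rtca, with means of 873 in WT and 766 in Gne KO, and Trmt13, with 325 and 287. Of the neighbours of Piezo2, Napg had 953 in WT and 949 in Gne KO, and Txnl1 passed as lower, with 2683 and 2169 (adjusted p = 0.00493, limma). No DNA of the clone was analysed here.

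Among called genes with a mean of at least 50 the largest rises were in genes of varied function. Cd53, a tetraspanin of leukocytes, had 6.72, 8.40 and 5.02 in WT and 109, 71.3 and 150.4 in Gne KO, a log2 fold change of 3.92 ± 0.54 (adjusted p = 7.16e-05, limma). Fez1, an adaptor of axonal transport, had 49.9, 48.5 and 67.2 in WT and 587, 624 and 624 in Gne KO, and Plag1, a zinc finger factor of growth, had 12.5, 15.9 and 9.03 in WT and 103, 109 and 124 in Gne KO. In each of these the lowest Gne KO library was several times the highest WT library. Pcdh15, a cadherin of hair cells, and Nrcam, a neuronal adhesion molecule, had log2 fold changes of 2.64 ± 0.25 and 2.50 ± 0.18. Gbp4, a guanylate binding protein, had 31.7, 38.3 and 52.2 in WT and 251, 213 and 264 in Gne KO. Spon2, a matrix protein, had 529, 463 and 417 in WT and 2216, 2203 and 2131 in Gne KO, and the kinase Dapk1, the glutamate receptor family member Grid1 and the collagen Col20a1 had log2 fold changes of 2.21 ± 0.24, 2.20 ± 0.26 and 2.19 ± 0.25. Among genes called higher with the highest counts, Spp1 (osteopontin) had 10069, 9682 and 9577 in WT and 29969, 33499 and 31657 in Gne KO and Cd34, a surface sialomucin of progenitors, 8350.2, 8421 and 8964 in WT and 17147, 17068 and 17205 in Gne KO. Among genes called lower with the highest counts that are not named above, the cadherin Fat1 had 18590.3, 18934 and 20996 in WT and 10043, 9896 and 10061 in Gne KO and the tubulin Tuba1a 12208, 11814 and 11940.1 in WT and 4904, 4623 and 5353 in Gne KO, which can share reads with near-identical tubulin genes.

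Part of these differences varied with the state of the cells. Of the 612 genes called in differentiated cells 343 were also called in the same direction in proliferative cells, 14 in the opposite direction, and 255 were not called there. The difference of the log2 fold changes between states passed in 8545 genes (41.9% of those tested), and in 65 of the genes called higher and 217 of those called lower. WT proliferative replicate 1 stood apart in muscle genes, with Myog at 8899, 2647 and 2459 in the 3 WT proliferative libraries and Ttn at 25587, 11050.4 and 10616, so the proliferative values of such genes depend on it. In proliferative Gne KO cells Myog was at 220.3, 519 and 366.

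The 14 genes called in opposite directions included regulators of differentiation. Id3 and Id1 were lower in differentiated Gne KO cells and higher in proliferative ones, where the means were 1596 in WT and 5009 in Gne KO for Id3 and 433 and 1481 for Id1. The differences between states were -5.05 ± 0.38 and -3.52 ± 0.27 on the log2 scale (adjusted p = 3.37e-07 and 4.58e-07, limma). Fgf2, a growth factor that holds myoblasts in the cycle, had 352, 314 and 348 in WT and 1008, 907 and 941 in Gne KO in differentiated cells, and means of 288 in WT and 78.7 in Gne KO in proliferative cells. It was thus higher in Gne KO after the switch of medium and lower before it. Cd53 went from 46.3 in proliferative WT to 1.76 in proliferative Gne KO, the reverse of its rise above. Wisp2, a WNT-induced matrix protein, and Krt14, a keratin of basal epithelium, were at 148, 157 and 117 in WT and 24.3, 21.6 and 24.1 in Gne KO and at 109, 75.6 and 98.3 in WT and 24.3, 11.9 and 25.1 in Gne KO in differentiated cells, with proliferative log2 fold changes of 2.18 and 2.43. Gbp8 had 9.59, 8.40 and 9.03 in WT and 50.4, 51.9 and 55.7 in Gne KO. The other 7 were Galnt18, Itga10, Cxcl10, Zfp52, Pcolce2, Tuba1a and Ccnb2.

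**Figure D4:**
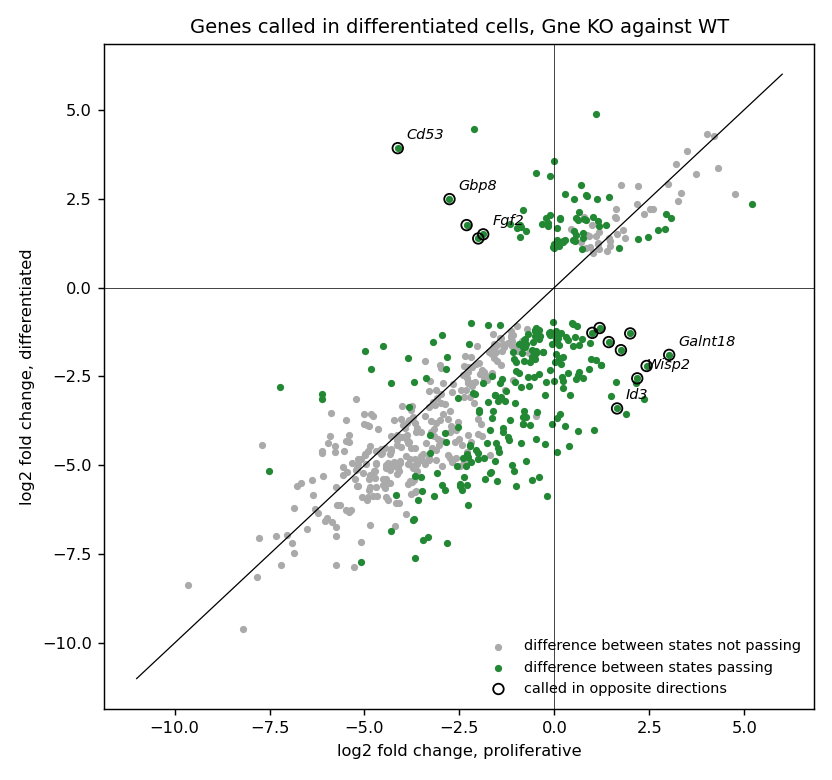
Log2 fold change between the genotypes (Gne KO over WT) in proliferative (x axis) and differentiated cells (y axis) for the 612 genes called in differentiated cells, in green where the difference between states has an adjusted p under 0.05, with the line of equal change. The 14 circled genes were called in opposite directions, with Cd53 at -4.12 and 3.92.

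Markers of other cell types did not rise together. Of 15 fibroblast markers 11 were tested, and 5 (45.5%) passed as higher, 1 (9.09%) as lower and 5 not at all. Over all genes tested 11.1% passed as higher and 12.5% as lower. The median log2 fold change of the 11 was 0.11. Their summed normalized counts, in which abundant genes weigh most, were 195482 to 214425 in WT and 285335 to 295490 in Gne KO. Dcn, Cd34 and Pdgfra, a receptor of mesenchymal progenitors with 2011, 2002 and 2453 in WT and 3986, 3933 and 4144 in Gne KO, were among those that rose. Of 17 markers of bone, cartilage and tendon 13 were tested, and 4 (30.8%) passed as higher and 1 (7.69%) as lower. Their sum of 14588 to 15005 in WT and 35938 to 39273 in Gne KO was mostly Spp1. Of 12 immune markers 7 were tested, with 1 higher and 2 lower, and the defining genes Ptprc, Adgre1, Tyrobp and Cd3e had too few counts to be tested. The sum of 1127 to 1205 in WT and 3130 to 4145 in Gne KO was mostly Gpnmb, with 756, 807 and 747 in WT and 3501, 2583 and 3658 in Gne KO. Adipocyte (6 of 12 tested), endothelial (7 of 11), nerve (8 of 12) and epithelial markers (2 of 9) passed as higher in 1, 0, 1 and 0 genes and as lower in 3, 4, 1 and 1. Smooth muscle contractile genes passed as lower in 5 (33.3%) and as higher in 2 (13.3%) of 15. Such counts of 1 to 4 marker genes shift by at most 2 with single libraries left out. The part of other cell types in the results above was not tested.

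Chromosome 19 stood apart from chromosomes 1 to 18 and X in its share of genes passing as higher. Of its 589 genes tested 152 (25.8%) passed as higher and 54 as lower, while on chromosomes 1 to 18 and X 7.33% to 14.1% passed as higher. The median log2 fold change of its genes with a mean of at least 100 was 0.20, against -0.06 to 0.07 on those chromosomes, and in proliferative cells it was 0.62. Pgam1 above lies on this chromosome. The share passing as lower was 19.9% on X and 9.17% to 17.1% on chromosomes 1 to 19.

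**Figure D5:**
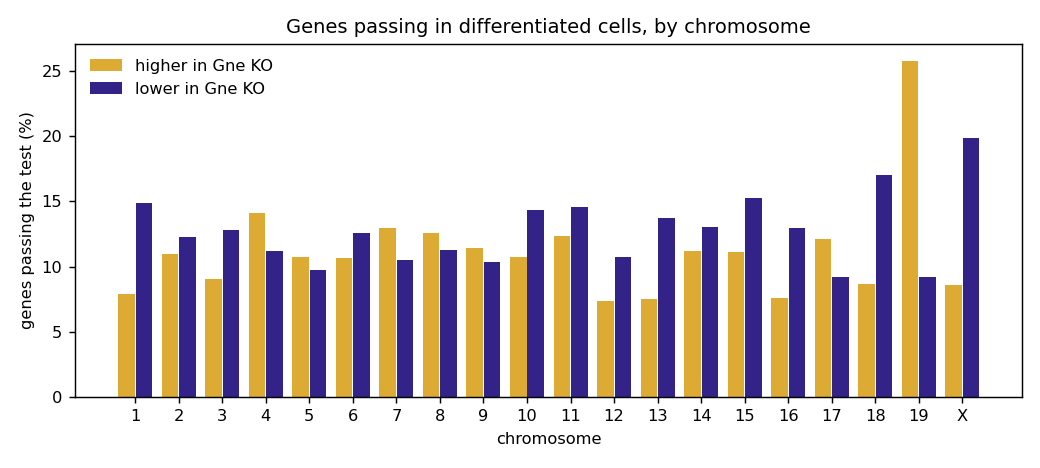
Share of genes tested that passed as higher (yellow) or lower (blue) in Gne KO, in percent, for chromosomes 1 to 19 and X in differentiated cells. On chromosome 19 the share higher was 25.8%, and on the others at most 14.1%.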

How the data were processed

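RNA of Sol8 cells was prepared with a stranded mRNA kit and sequenced. Per the submitters' processing notes, cutadapt 1.18, TopHat2 2.1.1, HTSeq 0.6.1, DESeq2 1.22.1 and the build GRCm38 were used. The deposited table holds raw counts per gene, made by the authors, with question marks for genes without counts. The sources used here do not give the strand setting of the counting, so overlapping and antisense genes are uncertain. Its further columns hold the authors' normalized counts, log2 fold changes and adjusted p-values and were not used. The number of sample columns left unused was 0.

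Counts of the 12 libraries were scaled with trimmed means of M values (trim 30% and 5%) and fitted with voom of limma 3.58.1 in R 4.3.3 over 4 groups, comparing the genotypes in each state and these 2 effects with each other, with Benjamini-Hochberg adjustment over 20415 genes. A count test had been planned, and voom replaced it because of the question marks. The fit was tested on simulated data. A normalized count is a count divided by the scaled library size, times the mean scaled size. The principal components used log2 values with a prior count of 2. Fold changes of genes with few counts depend on voom's added count.

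The comparison, its gene lists and tests were chosen with earlier results of these data known. Genes named are the 12 largest rises and falls among called genes with a mean of at least 50 and no overlap, the 8 most abundant called in each direction, the 4 most abundant and the extreme passing members of each list described, Gne, the 5 most abundant near zero and the 5 largest with opposite calls. Other named genes were chosen after their values were seen, and lists given by counts alone have no members named. Some genes the rule names are not reported here. Alternatives were other scalings, other filters, the 6 libraries alone, limma-trend, sample weights, a replicate block, a GC and length trend and leaving out each library. The motif ACGTG and the window of 100 bases were chosen after seeing the data.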

Additional observations from a re-analysis of the deposited data

Results flagged for a closer look

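The values in this section are differences between the log2 fold changes (Gne KO over WT) of differentiated and proliferative cells, for the called genes named above in which limma's test of that difference passed. A negative value means a lower fold change in differentiated cells. With 41.9% of all genes past this test, a difference between the states is common, and 8294 genes passed it without WT proliferative replicate 1, which stood apart in muscle genes, where 8545 passed with all libraries.

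Of the genes called in opposite directions the difference was 8.04 in Cd53, 5.25 in Gbp8, 4.07 in Itga10 and 3.37 in Fgf2, which were higher in differentiated Gne KO cells. It was -5.05 in Id3, -4.74 in Wisp2, -4.64 in Krt14, -3.52 in Id1, -2.33 in Ccnb2 and -2.27 in Tuba1a, which were lower. The proliferative Gne KO means of Cd53 and Gbp8 were 1.76 and 3.25, so the size of their differences depends on voom's added count.

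Among muscle genes that were lower and had the lower fold change in differentiated cells, the difference was -3.48 in Tead4, -3.17 in Mef2c and -2.98 in Casq1. It was -2.62 in Myod1, -2.60 in Asb2, -2.14 in Kcnj2, -1.62 in Trim63, -1.48 in Tpm2, -0.67 in Des and -0.67 in Ncam1. The differentiated Gne KO mean of Asb2 was 3.54, so the size of its difference depends on voom's added count. Lmod1, of smooth muscle, had -3.30. In Dmd, Mybpc1, Myh4, Actn2 and Lpar3 the mean of Gne KO was under 5 in both states, so the fitted values of -4.90, -4.35, -3.94, -2.82 and -2.63 depend on voom's added count and are no measure of size.

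In other genes called lower the difference was -3.64 in Sfrp2, -3.32 in H19, -3.10 in Cdkn1c, -2.77 in Hey1, -2.39 in Itgb6 and -2.17 in Cxcl1. It was -1.82 in C1qtnf3, -1.67 in Fbln5, -1.28 in Thbs1, -0.97 in Plk2, -0.92 in Fat1 and -0.81 in Chac1. In Sfrp2, Itgb6 and Fbln5 every differentiated Gne KO library was under 5, so the size of their differences depends on voom's added count. Igfbp5 and Mmp2 were lower in both states and less so in differentiated cells, by 1.67 and 0.46.

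Genes called higher with the higher fold change in differentiated cells had differences of 3.71 in Hs3st1, 3.25 in Plag1, 3.02 in Col20a1, 2.64 in Il33, 2.58 in Spp1, 2.36 in Pcdh15 and 2.14 in Dcn. The values were 1.76 in Gbp4, 1.71 in Rsad2, 1.38 in Nrcam, 1.36 in Itgb3, 1.11 in Hmcn1, 0.90 in Bnip3, 0.79 in Pdk1 and 0.40 in Mmp3. Bmp4 and Gpnmb were higher in both states and more so in proliferative cells, with -2.86 and -0.88. The proliferative WT mean of Bmp4 was 2.28, so the size of its difference depends on voom's added count.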

How the results depend on the processing

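Counts of called genes, of genes near zero and of genes differing between the states stayed within 1.5 times their value in every alternative run. So did the number of lists with a median below that of all genes and the share of called-lower promoters with a MEF2 site. For the difference between the states this leaves out the fit of the 6 libraries alone. The medians themselves moved more in some lists. They ranged from -1.70 to -0.85 in muscle ubiquitin ligases and from -1.67 to -0.87 in imprinted genes. With only the 6 differentiated libraries 4224 genes passed as higher and 4238 as lower, and with sample weights 4520 and 4714. The share of chromosome 19 genes passing as higher was then 42.1% and 42.6%. With the GC and length trend removed 4108 genes passed as higher, and with this trend removed together with a replicate block 3858. The cause of these shifts was not tested.

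With the replicate number as a block alone, 2045 genes passed as higher and 2405 as lower, 105 and 508 were called and 8291 differed between the states. Same-numbered libraries did not deviate together (correlations of -0.04 to 0.09), so the numbers give no pairing. Leaving out single libraries, 1442 to 3217 genes passed as higher, 1828 to 3339 as lower, 93 to 114 were called higher and 479 to 525 lower, and 7422 to 9977 differed between the states. The lists with a median below that of all genes were 31 of 44 (29 to 32), genes near zero 16 (15 to 22), chromosome 19 genes passing as higher 18.3% to 34.3%, and called-lower promoters with a MEF2 site 9.35% to 10.1%. Of the log2 fold changes of the 267 genes named with values, 0 changed sign past the threshold. With 1 library left out, 118 of 3204 values lost the threshold. Only values of the 198 genes that passed could lose it, and the 3204 include fits that leave out a proliferative library. Depth limits genes with few reads, and standard errors were large in some of them (Myh8, St8sia2, Cd53). These errors also hold the spread pooled over the 4 groups. Lpar3, with 1 read in Gne KO, had an adjusted p of 1.43e-07 by limma, and Myom3, with 6 reads, had 0.00138.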

Other observations

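Lists that the report does not describe showed changes in single genes. Their counts below stand against 11.1% of all genes tested that passed as higher and 12.5% as lower. In the DNA damage list these shares were 10% and 7.5%, and in the Hox list 9.52% and 9.52%. Of 26 genes tested of p53 and its targets 7 passed as lower and 2 as higher (5 without Gne KO proliferative replicate 1, and 1 without WT replicate 2 or Gne KO replicate 2), with a median log2 fold change of -0.09. Btg2 and Plk2, early targets that also respond to growth factors, fell by 2.99-fold and 2.55-fold, while Gadd45a had 3097, 3259 and 3027 in WT and 4709, 4154 and 4478 in Gne KO. Of 40 genes of the DNA damage response 4 passed as higher (1 to 7 with 1 library left out, with 1 without WT replicate 1 or Gne KO replicate 1 or 2) and 3 as lower (1 without Gne KO replicate 1 or 2, and 5 without Gne KO proliferative replicate 1), and the abundant Trp53bp1, Xrcc5 and Parp1 had log2 fold changes of -0.13 ± 0.10, -0.20 ± 0.07 and -0.06 ± 0.07. In the list of NRF2 and xenobiotic genes Cbr1, a carbonyl reductase, had 116, 112 and 105 in WT and 16.5, 18.4 and 4.64 in Gne KO, and Txnrd1, a thioredoxin reductase, had 4937, 4959 and 5127 in WT and 3527, 3343 and 3635 in Gne KO, while 6 of 23 passed as higher (2 without WT replicate 1) and 4 as lower.

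Of 21 Hox genes tested 2 passed as higher and 2 as lower, each 1 without single differentiated libraries. Hoxc6 had 995, 859 and 1075 in WT and 1494, 1729 and 1763 in Gne KO and Hoxb2 26.9, 26.1 and 36.1 in WT and 11.3, 6.49 and 18.6 in Gne KO, whereas the abundant Hoxc10 had a log2 fold change of 0.10 ± 0.12. In the smooth muscle list Acta2, the actin of smooth muscle, had 35703, 36429 and 29611 in WT and 20871, 19350.2 and 20188 in Gne KO and Lmod1 had 50.8, 36.4 and 53.2 in WT and 9.56, 6.49 and 6.50 in Gne KO, and Vcl, vinculin, had a log2 fold change of -0.02 ± 0.07 and did not pass. Of 22 mechanosensitive and ion channels 7 passed as lower and 3 as higher (5 without Gne KO proliferative replicate 1 or 2), and Gja1, the gap junction protein connexin 43, had 7759, 7915 and 8735 in WT and 14313, 14198 and 14213 in Gne KO. Piezo1, the relative of Piezo2 in most tissues, had 7534, 7568 and 7391 in WT and 8082, 7818 and 7837 in Gne KO and did not pass. All of these genes were chosen by the rule for named genes or after their values were seen.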
